A study of Mus musculus with 16 samples.

Results

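The 5 genes described here are the metallothionein genes *Mt1* and *Mt2*, the zinc importer gene *Slc39a4*, the zinc exporter gene *Slc30a1* and the zinc sensor gene *Mtf1*. They were taken as named rows of both deposited matrices, and all 5 were found among the 24421 genes listed. *Mt1* had 8345 unique molecular identifiers (UMIs, each standing for 1 captured transcript) in WT and 6235 in ROBO, and *Mt2* had 2699 and 1357. For *Slc39a4* the sums were 401 and 397 UMIs, for *Slc30a1* 146 and 171, and for *Mtf1* 68 and 59. All 5 passed the minimum of 100 UMIs over both genotypes that was set for ratios. The genes were selected on the ROBO over WT ratio of the metallothionein UMIs, which was known to be below 1 in these same matrices, so every ratio between genotypes below is a description and no test of it was made.

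Metallothioneins are small cysteine-rich proteins that bind zinc and copper and buffer them inside the cell. Zinc enters enterocytes from the gut lumen through ZIP4, the product of *Slc39a4*, and leaves cells through ZNT1, the product of *Slc30a1*. MTF1 is a transcription factor that binds metal response elements in the promoters of *Mt1*, *Mt2* and *Slc30a1* when free zinc rises. Glucocorticoids and inflammatory signals also act on the metallothionein genes. In the small intestine metallothioneins are known from Paneth cells and crypt cells as well as from absorptive cells.

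The cells came from crypt isolates of the small intestine of outbred mice at postnatal day 16, untreated, and the labels list 8 WT and 8 ROBO-Crainbow samples, isolated with 2 cartridges per genotype. ROBO mice carry 1 copy of the ROBO cassette and 1 copy of Villin-Cre, which acts in the intestinal epithelium, so that an epithelial cell expresses human *RSPO3* or a *PTPRK*-*RSPO3* fusion together with a fluorescent protein, while WT mice are named only as wild type. Which of the transgenes a ROBO cell carried cannot be read from the matrices, and the mouse *Rspo3* row (24 UMIs in WT and 16 in ROBO) does not check the human transgene. The cell names give the genotype and not the sample or a barcode, so each genotype was 1 pooled sample, barcodes shared between libraries could not be counted, and the spread between mice is not known. The WT matrix held 1348 cells with 2682127 UMIs and a median of 1492 UMIs per cell, and the ROBO matrix 1249 cells with 2428435 UMIs and a median of 1610. All intervals are 95% intervals for counting error only, and they are too narrow where a few cells hold many UMIs of a gene.

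*Mt2* and *Mt1* lie in the same orientation on chromosome 8 of GRCm38, at chr8:94172664-94173568 and chr8:94179082-94180327 on the plus strand (GENCODE M21), with 5513 bases between them. The 186 bases of each coding sequence are shown because the pair must be told apart by the counting and because the cysteine codons, in capitals, are the metal-binding residues of the proteins. Of the 61 codons before the stop, 20 encode cysteine in each gene, all 20 at the same places, and 148 of the 186 bases were identical (79.6%).
Mt2: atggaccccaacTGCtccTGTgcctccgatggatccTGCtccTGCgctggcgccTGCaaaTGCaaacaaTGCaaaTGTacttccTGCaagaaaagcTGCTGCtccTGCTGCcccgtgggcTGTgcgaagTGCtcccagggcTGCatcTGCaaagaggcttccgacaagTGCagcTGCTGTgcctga
Mt1: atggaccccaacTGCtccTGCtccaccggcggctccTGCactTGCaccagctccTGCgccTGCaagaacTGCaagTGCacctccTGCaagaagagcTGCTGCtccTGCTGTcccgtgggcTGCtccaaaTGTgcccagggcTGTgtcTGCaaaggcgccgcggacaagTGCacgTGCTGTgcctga
The longest exact stretch shared by the principal transcripts was 20 bases. After the stop codons, over 134 bases in *Mt1* and 141 in *Mt2*, it was 10 bases. Where on the transcripts the counted reads fell cannot be read from the matrices. The transcripts are of similar length, with 511 bases for *Mt2* and 549 for *Mt1*.

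The promoters of the metallothionein pair and of *Slc30a1* are shown because these genes are known targets of MTF1. The core of the metal response element was searched on both strands as TGCACNC or TGCGCNC in the RefSeq windows of GRCm38.p6, from 250 bases before to 50 bases after each annotated start. *Mt2* held 4 matches, *Mt1* 3, *Slc30a1* 2 and *Mtf1* 0. Of 32851 windows of this length, 25.7% held at least 1 match, 7.11% at least 2, 1.97% at least 3 and 0.517% at least 4. The 250 bases before the start hold 3 of the matches in *Mt2*, 1 in *Mt1* and 1 in *Slc30a1*, in capitals below; the others lie just after the annotated start.
Mt2, chr8:94172368-94172617, plus strand: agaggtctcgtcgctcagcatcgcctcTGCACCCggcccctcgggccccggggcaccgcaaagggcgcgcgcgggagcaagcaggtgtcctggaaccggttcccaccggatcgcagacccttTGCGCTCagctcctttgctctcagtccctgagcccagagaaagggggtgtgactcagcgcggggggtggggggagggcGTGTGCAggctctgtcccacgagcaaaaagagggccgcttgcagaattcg
Mt1, chr8:94178839-94179088, plus strand: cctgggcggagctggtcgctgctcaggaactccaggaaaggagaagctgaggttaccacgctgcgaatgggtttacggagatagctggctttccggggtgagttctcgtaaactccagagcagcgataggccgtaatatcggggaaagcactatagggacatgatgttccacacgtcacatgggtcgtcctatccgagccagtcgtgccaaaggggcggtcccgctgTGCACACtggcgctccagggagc
Slc30a1, chr1:191906531-191906780, plus strand: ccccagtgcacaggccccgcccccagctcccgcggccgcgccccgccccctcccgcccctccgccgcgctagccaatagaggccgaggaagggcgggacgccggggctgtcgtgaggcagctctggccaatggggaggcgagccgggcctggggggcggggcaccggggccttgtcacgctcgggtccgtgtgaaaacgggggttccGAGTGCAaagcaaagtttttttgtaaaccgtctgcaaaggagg
A match is a description of the letters and not of a bound site. The counts depend on the annotated start that was used. Matches more than 50 bases after it were not searched, so the counts need not hold all metal response elements of a gene. *Slc39a4* lies at chr15:76612383-76617384 on the minus strand, *Slc30a1* at chr1:191906767-191913247 and *Mtf1* at chr4:124802104-124849800, both on the plus strand. *Slc30a1* overlaps 1700034H15Rik and *Mtf1* overlaps 1110065P20Rik on the other strand, both of which the matrices list, and how reads over such overlaps were counted is not given in the sources used here.

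Clustering of all cells, with the zinc genes left out of the variable genes, gave 12 clusters, and names ending in -like were given from marker genes. Stem cell-like cells formed 3 clusters, led by *Igfbp4* and *Tgfbr2* (354 cells), by *Zfp692* and *Ppan* (338 shallow cells with a median of 817.5 UMIs) and by *Sfrp5* and *Slc14a1* (144 deep cells with a median of 3547 UMIs). The last of these had 18 markers of transiently amplifying cells raised and 11 of stem cells. The only transiently amplifying-like cluster (320 cells, median 910.5 UMIs) was led by the ribosomal RNA gene *Rn45s* ahead of *Mcm5* and *Cdca8*. It had 6 markers of transiently amplifying cells raised and 4 of stem cells, so it does not hold all dividing cells. *Gsdmc4* and *Dmbt1* led the 437 bottom enterocyte-like cells. This cluster had 9 markers of transiently amplifying cells raised and 6 of bottom enterocytes. The names thus follow the leading genes and not the number of markers raised. Middle enterocyte-like cells formed a cluster of 281 cells with *Cubn* and *Gm2061* in front and one of 129 cells with *Sis* and *Reg3a* in front, and the 228 top enterocyte-like cells had *Gpx3* and *Mfi2* in front. A single secretory-like cluster (127 cells) held goblet and Paneth genes, 30 cells were enteroendocrine-like and 46 immune-like. A cluster of 163 cells led by *Cxcl10*, *Fosb* and *Atf3* stayed unnamed. Which class a crypt cell fell in depended on the settings. Of the 8 cells that carried at least 4 fibroblast markers, all were placed among the stem cell-like cells, where they held 14 *Mt1* UMIs.

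*Mt1* was detected in every epithelial class, and its level was not ordered from the crypt base to the top of the villus. Its level, in UMIs per 10000 UMIs of a class over both genotypes, was 44.7 (42.0 to 47.5) in the unnamed cells, 39.0 (37.7 to 40.4) in middle enterocyte-like and 35.3 (33.3 to 37.4) in transiently amplifying-like cells. Bottom enterocyte-like cells had 27.0 (26.1 to 27.9) and stem cell-like cells 25.8 (25.1 to 26.6), and these intervals overlapped. Lower levels were found in top enterocyte-like cells, with 18.7 (17.2 to 20.3), in secretory-like cells, with 18.2 (16.6 to 19.97), and in enteroendocrine-like cells, with 14.4 (11.1 to 18.3); neighbours in this order overlapped. Immune-like cells had 6.74 (5.16 to 8.66), and 27 of their 61 UMIs came from 1 WT cell. Without it, the level in the other 45 immune-like cells was 4.04 (2.80 to 5.65).

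With each cell thinned to 912 UMIs, which left out 364 WT and 285 ROBO cells below that depth, a *Mt1* UMI was found in 83.9% of 1912 epithelial-like cells (exact interval 82.2 to 85.5%). The share was highest in middle enterocyte-like cells, at 90.7% (87.1 to 93.5%), and was 71.0% (63.1 to 78.0%) in top enterocyte-like cells. Unthinned, it was 91.9% in epithelial-like cells. Immune-like cells, used here for the level that free RNA can give although immune cells can express metallothioneins, had a *Mt1* UMI in 19.4% of 36 thinned cells (8.19 to 36.0%). Their median depth was 1749.5 UMIs.

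*Mt2* was far more uneven among the classes than *Mt1*. Bottom enterocyte-like cells had 15.8 (15.1 to 16.5) *Mt2* UMIs per 10000, unnamed cells 12.6 (11.2 to 14.2), secretory-like cells 7.41 (6.38 to 8.57) and middle enterocyte-like cells 6.57 (6.03 to 7.13). The middle enterocyte-like value was the average of a high and a low cluster: cells led by *Sis* and *Reg3a* had 16.8 (15.4 to 18.3), and cells led by *Cubn* and *Gm2061* had 0.645 (0.449 to 0.897). Transiently amplifying-like cells had 5.08 (4.34 to 5.90) and stem cell-like cells 4.62 (4.31 to 4.96), with overlapping intervals. Within the stem cell-like class the deep cluster led by *Sfrp5* had 9.11 (8.30 to 9.97) and the cluster led by *Igfbp4* 1.83 (1.56 to 2.14). Top enterocyte-like cells had 1.16 (0.819 to 1.60), no more than the 1.77 (1.01 to 2.87) of immune-like cells, so *Mt2* was not above the level that free RNA can give there, in the *Cubn* cluster or in the *Igfbp4* cluster.

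**Figure D1:**
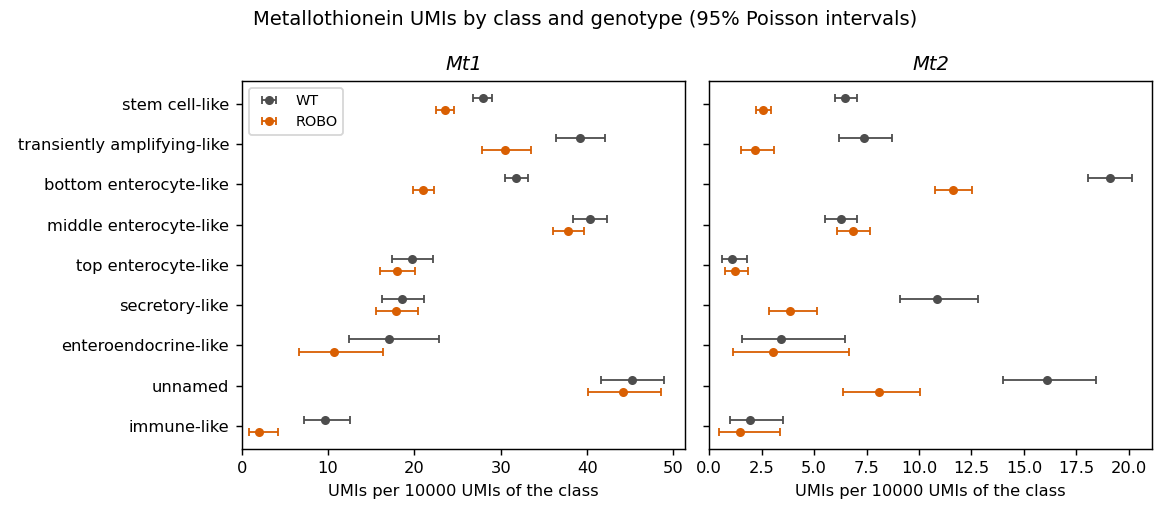
*Mt1* and *Mt2* UMIs per 10000 UMIs of each class (x axis) in the cells of each class (y axis), with WT in grey and ROBO in orange; points are pooled sums and bars are exact Poisson 95% intervals. In bottom enterocyte-like cells *Mt1* was 31.8 in WT and 21.0 in ROBO and *Mt2* was 19.1 and 11.6, while the points of the middle and top enterocyte-like classes lie close together.

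The 2 metallothionein genes had different patterns over the clusters. Over the 12 clusters, Pearson's r between the log2 levels of *Mt1* and *Mt2* (with 0.1 added) was 0.34, given as a description since the clusters share libraries and were formed from the same cells. The *Mt1* sum was 1.71 times that of *Mt2* in bottom enterocyte-like cells, 2.41 times in the *Sis* cluster, 2.37 times in the *Sfrp5* cluster, 14.5 times in the *Igfbp4* cluster and 59.1 times in the *Cubn* cluster. Within classes and clusters the tie between the counts varied: after thinning, a *Mt2* UMI was found in 72.3% of the 166 bottom enterocyte-like cells with at least 3 *Mt1* UMIs and in 50.6% of the 170 with at most 1. In the *Sis* cluster those shares were 78.5% of 65 cells and 37.5% of 32. In stem cell-like cells of both genotypes they were 16.9% of 242 cells and 16.2% of 235. By genotype the stem cell-like shares went opposite ways, with 24.4% and 15.8% in WT and 8.11% and 16.5% in ROBO.

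Among the genes whose levels over the 12 clusters were most like *Mt1*, of 5106 other genes with at least 200 UMIs, were *0610012G03Rik* (r = 0.98), *Nags*, *Scrn2* and *Aldh16a1*. For *Mt2* they were *Tstd1* (r = 0.95), *Ces2a*, *Dmbt1*, *Fh1* and *Gsdmc4*; *Dmbt1* and *Gsdmc4* were leading genes of the bottom enterocyte-like cluster. The last gene named had r = 0.96 for *Mt1* and r = 0.82 for *Mt2*.

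*Slc39a4* had its highest level at the far end of the enterocyte path. Top enterocyte-like cells had 6.26 (5.42 to 7.19) UMIs per 10000, the *Cubn* cluster 3.17 (2.71 to 3.68) and the unnamed cells 3.12 (2.44 to 3.93), the last 2 with overlapping intervals. The other middle enterocyte-like cluster, led by *Sis*, had 0.894 (0.594 to 1.29). Transiently amplifying-like cells had 1.16 (0.828 to 1.59), secretory-like cells 1.09 (0.717 to 1.58), stem cell-like cells 0.983 (0.841 to 1.14) and bottom enterocyte-like cells 0.683 (0.546 to 0.843). These levels were higher than the 0.332 (0.0684 to 0.969) of immune-like cells, but their intervals overlapped it. Since immune-like cells held only 3 UMIs, the overlap cannot decide whether these levels were above that which free RNA can give. After thinning, 42.6% of 155 top enterocyte-like cells had a *Slc39a4* UMI (34.7 to 50.8%), against 6.84% of 424 bottom enterocyte-like cells (4.63 to 9.68%) and 1 of 36 immune-like cells (2.78%, 0.0703 to 14.5%). Unthinned, the shares were 47.8% in the top and 15.6% in the bottom enterocyte-like cells, at median depths of 1213 and 2667 UMIs.

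The importer gene and *Mt2* were high in different enterocyte clusters, with *Slc39a4* high in the *Gpx3* and *Cubn* clusters and *Mt2* in the *Gsdmc4* and *Sis* clusters. Pearson's r between them over the 12 clusters was -0.34. The genes most like *Slc39a4* were *Mtmr11* (r = 0.95), *Hif3a*, *Krba1*, *Myo18a* and *Pm20d1*, each with r of at least 0.94.

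*Slc30a1*, the exporter, was sparse. It was highest in middle enterocyte-like cells, with 1.203 (0.982 to 1.46) UMIs per 10000, unnamed cells, with 1.05 (0.675 to 1.57), and top enterocyte-like cells, with 0.818 (0.534 to 1.198), and these intervals overlapped. Bottom enterocyte-like cells had 0.548 (0.426 to 0.693), stem cell-like cells 0.422 (0.331 to 0.531), transiently amplifying-like cells 0.358 (0.185 to 0.626) and secretory-like cells 0.282 (0.113 to 0.581). Immune-like cells held 1 UMI, or 0.111 (0.00280 to 0.616), and the middle enterocyte-like and unnamed intervals lay above theirs. That UMI was in the WT cell with 27 *Mt1* UMIs. Leaving out this cell sets the immune-like count to 0, with an exact Poisson interval from 0 to 0.439. That lower interval follows from the cell left out, so it cannot place *Slc30a1* in top enterocyte-like cells above free RNA. The genes most like *Slc30a1* were *Fahd1* (r = 0.96), the glucose transporter gene *Slc5a1*, *Sult1b1*, *Hsd17b11* and *Grhpr*. *Mtf1* had 0.253 (0.211 to 0.301) UMIs per 10000 in epithelial-like cells and between 0.175 in middle enterocyte-like and 0.395 in unnamed cells, with overlapping intervals. Immune-like cells held 0 *Mtf1* UMIs, which allows up to 0.332 per 10000, so the sensor gene could be placed in no class at this depth.

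**Figure D2:**
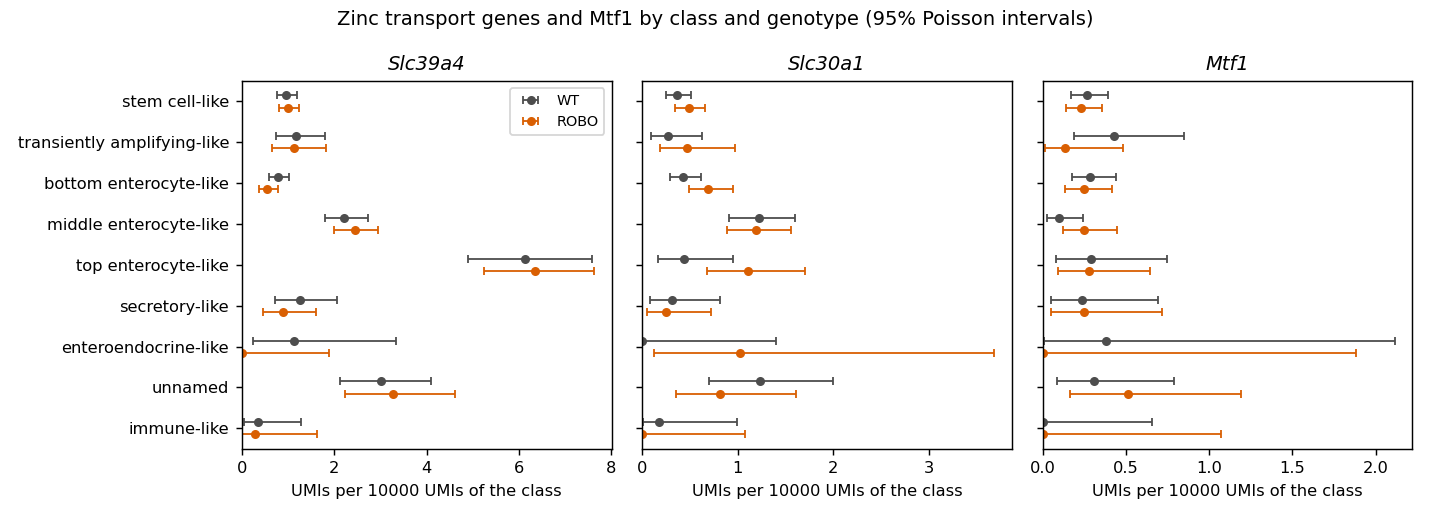
*Slc39a4*, *Slc30a1* and *Mtf1* UMIs per 10000 UMIs of each class (x axis) in each class (y axis), with WT in grey, ROBO in orange and exact Poisson 95% intervals for counting error only. *Slc39a4* stands out in top enterocyte-like cells, with 6.13 in WT and 6.35 in ROBO, and the intervals of *Mtf1* overlap in every class.

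Between genotypes, *Mt2* was lower in ROBO in several classes of crypt cells and bottom enterocyte-like cells, *Mt1* was lower by less, and neither differed beyond counting error over all middle or all top enterocyte-like cells. In epithelial-like cells *Mt2* had 10.2 (9.85 to 10.6) UMIs per 10000 in WT and 5.65 (5.35 to 5.96) in ROBO, giving a log2 ratio of ROBO over WT of -0.86 (-0.95 to -0.76). *Mt1* had 31.6 (30.9 to 32.3) in WT and 26.0 (25.4 to 26.7) in ROBO, giving a log2 ratio of -0.28 (-0.33 to -0.23). A gene was called lower when its WT level was at least 25% above that of ROBO, and higher when ROBO was at least 25% above WT, with no test behind the call. By that rule 8.5% of the 7355 genes with at least 100 UMIs in epithelial-like cells were lower and 9.08% higher in ROBO. *Mt2* was called lower, at rank 30 from the lowest ratio, and *Mt1*, at rank 813, was not called. The shares of classes were not identical, with 102 of 1348 WT and 126 of 1249 ROBO cells in the top enterocyte-like class and 440 and 396 in the stem cell-like class. With 1 pooled sample per genotype this is no tested difference. Markers of top enterocytes in epithelial-like cells summed to 178 UMIs per 10000 in WT and 213 in ROBO, with 8 of 12 higher in ROBO. Within top enterocyte-like cells their sum was 1806 in WT and 1566 in ROBO. Given the same shares of clusters, the log2 ratios were -0.80 for *Mt2* and -0.27 for *Mt1*.

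In stem cell-like cells *Mt2* had 588 UMIs in 440 WT cells and 212 in 396 ROBO cells, or 6.50 (5.98 to 7.04) and 2.57 (2.24 to 2.94) per 10000, giving a log2 ratio of -1.34 (-1.57 to -1.11). Of 3707 genes with at least 100 UMIs in these cells, 8.69% were called lower, and *Mt2* had the lowest ratio of all. After thinning, a *Mt2* UMI was found in 20.4% of 318 WT cells (16.1 to 25.3%) and 13.9% of 302 ROBO cells (10.2 to 18.3%), with overlapping intervals. The log2 ratio of the thinned sums was -1.35 (-1.81 to -0.91). The 5 cells with the most *Mt2* UMIs held 21.8% of the WT sum and 25.9% of the ROBO sum. The 3 clusters differed in the size of the *Mt2* ratio: it was -2.53 (-3.26 to -1.86) in the *Zfp692* cluster, where the level was 8.32 in WT and 1.44 in ROBO, -1.27 (-1.57 to -0.98) in the *Sfrp5* cluster and -0.93 (-1.43 to -0.44) in the *Igfbp4* cluster. The *Igfbp4* cluster had 2.36 per 10000 in WT and 1.24 in ROBO, and its pooled level was not above that which free RNA can give. The WT level of stem cell-like cells lay above the interval of immune-like cells. The ROBO level lay within that interval, but above the 1.19 (0.570 to 2.19) of immune-like cells without the WT cell with the most *Mt1*, which held 6 of their 16 *Mt2* UMIs. For *Mt1* the stem cell-like level came to 27.9 (26.8 to 29.0) in WT against 23.5 (22.5 to 24.6) in ROBO, and the log2 ratio of -0.25 (-0.33 to -0.16) was not called. By cluster it was -0.57 (-0.74 to -0.39) in the *Sfrp5* cluster, -0.22 (-0.41 to -0.03) in the *Zfp692* cluster and -0.08 (-0.20 to 0.03) in the *Igfbp4* cluster. The *Mt1* ratio was smaller once cells under 500 detected genes had been left out of the clustering (-0.0459, -0.18 to 0.09), while that of *Mt2* was then -1.94 (lowest over all settings -2.08, highest -1.08). Fibroblast markers in stem cell-like cells summed to 3.24 UMIs per 10000 in WT and 9.24 in ROBO, with 9 of 11 higher in ROBO and *Lum* at 0.

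In transiently amplifying-like cells *Mt2* had 137 UMIs in 177 WT cells and 33 in 143 ROBO cells, or 7.38 (6.19 to 8.72) and 2.21 (1.52 to 3.11) per 10000, giving a log2 ratio of -1.74 (-2.33 to -1.18). *Mt1* had 727 and 455 UMIs, or 39.2 (36.4 to 42.1) and 30.5 (27.8 to 33.4) per 10000, giving a log2 ratio of -0.36 (-0.53 to -0.19). The ROBO interval of *Mt2* overlapped that of immune-like cells with or without that WT cell, and the 5 cells with the most *Mt2* UMIs held 60.6% of the ROBO sum and 25.5% of the WT sum. Both genes were called lower, *Mt2* at rank 1 and *Mt1* at rank 81 of 503 genes, of which 18.7% were called lower. After thinning, a *Mt2* UMI was found in 27.6% of 87 WT cells (18.5 to 38.2%) and 11.1% of 72 ROBO cells (4.92 to 20.7%). Without the 5 cells of each genotype with the most *Mt2* UMIs the *Mt2* ratio was -2.63, and with the zinc genes kept in the clustering it was -1.12 and that of *Mt1* -0.64. The call of *Mt1* was lost at a resolution of 0.5, at -0.19 (-0.31 to -0.08), and with cells weighted equally, at -0.24. In this class *Rn45s* made up 0.339% of UMIs in WT and 0.179% in ROBO. Middle enterocyte markers summed to 48.4 UMIs per 10000 in WT and 28.2 in ROBO, with 8 of 11 lower in ROBO and *Gsta1* at 0. The part of these differences in the metallothionein ratios was not tested.

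Bottom enterocyte-like cells showed the lower level of both genes at about the same size. *Mt1* had 2217 UMIs in 226 WT cells and 1182 in 211 ROBO cells, or 31.8 (30.5 to 33.1) and 21.0 (19.8 to 22.3) per 10000, giving a log2 ratio of -0.60 (-0.70 to -0.49). *Mt2* had 1331 and 653 UMIs, or 19.1 (18.1 to 20.1) and 11.6 (10.7 to 12.5) per 10000, giving a log2 ratio of -0.72 (-0.85 to -0.58). Both were called lower in this class, as were 16.5% of 2730 genes, with *Mt2* at rank 98 and *Mt1* at rank 141. The share of WT cells with at least 6 *Mt1* UMIs after thinning was 14.6%, against 2.84% of ROBO cells, and cells with no *Mt1* UMI made up 12.2% and 21.8%. A *Mt2* UMI was then found in 65.3% of 213 WT cells (58.5 to 71.6%) and 58.8% of 211 ROBO cells (51.8 to 65.5%), with overlapping intervals. The highest cell held 105 *Mt1* UMIs in WT and 34 in ROBO, and without the 5 highest cells of each genotype the log2 ratios were -0.56 for *Mt1* and -0.65 for *Mt2*. Over all settings tried they lay between -0.69 and -0.37 for *Mt1* and between -0.85 and -0.43 for *Mt2*, the smaller values coming with other choices of genes or scores in the clustering.

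**Figure D3:**
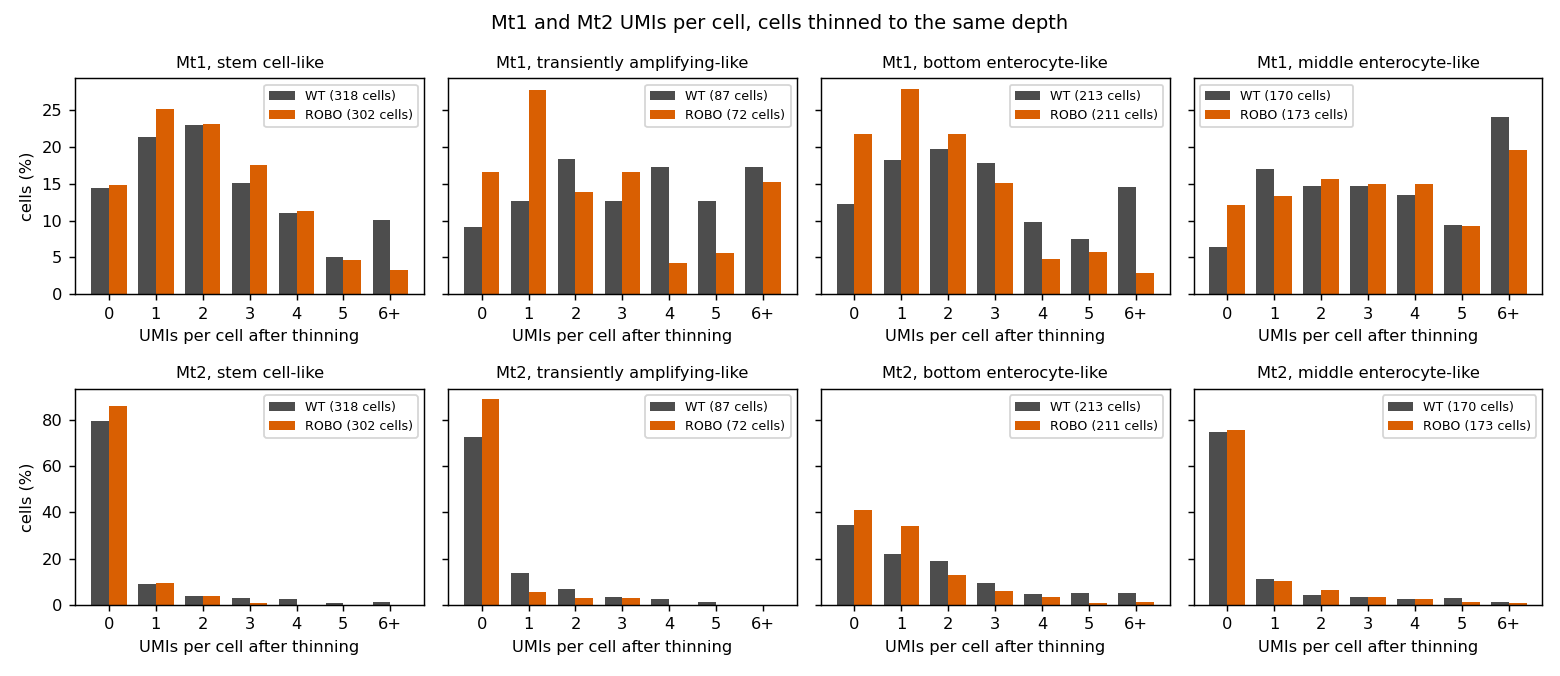
Share of cells (y axis, percent) with 0 to 5 or with 6 or more *Mt1* or *Mt2* UMIs (x axis) after thinning each cell to 912 UMIs, in 4 classes, with WT in grey and ROBO in orange. In bottom enterocyte-like cells 14.6% of 213 WT cells and 2.84% of 211 ROBO cells had 6 or more *Mt1* UMIs, and in stem cell-like cells no ROBO cell had more than 3 *Mt2* UMIs.

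In middle and top enterocyte-like cells the intervals of both ratios included 0. In middle enterocyte-like cells *Mt1* was 40.3 (38.4 to 42.3) per 10000 in WT and 37.8 (36.0 to 39.7) in ROBO, giving a log2 ratio of -0.09 (-0.19 to 0.01), and *Mt2* was 6.26 (5.53 to 7.07) and 6.86 (6.10 to 7.68), giving a log2 ratio of 0.13 (-0.11 to 0.38). In the *Sis* cluster, where *Mt2* was as high as in bottom enterocyte-like cells, it had 241 UMIs in WT and 286 in ROBO, giving a log2 ratio of 0.16 (-0.09 to 0.41). *Mt1* in the *Sis* cluster was 43.1 in WT and 38.3 in ROBO, with a log2 ratio of -0.17 (-0.33 to -0.01) that just left out 0. In the *Cubn* cluster there were 21 and 14 *Mt2* UMIs, too few to set a direction. Of 1652 genes in middle enterocyte-like cells 10.4% were called lower, and neither gene was among them. In top enterocyte-like cells, where 8.35% of 407 genes were called lower, the log2 ratio of *Mt1* was -0.13 (-0.37 to 0.10), and *Mt2* had 15 and 22 UMIs.

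In secretory-like and unnamed cells the pooled *Mt2* level was lower in ROBO, while that of *Mt1* did not differ beyond counting error. In secretory-like cells *Mt2* had 137 UMIs in 63 WT cells and 47 in 64 ROBO cells, or 10.9 (9.11 to 12.8) and 3.85 (2.83 to 5.13) per 10000, giving a log2 ratio of -1.49 (-2.00 to -1.01), in a class in which 25.1% of 323 genes were called lower. With cells thinned the ratio was -0.62 (-1.40 to 0.15), an interval that includes 0, and a *Mt2* UMI was found in 39.0% of 41 WT cells and 32.0% of 50 ROBO cells. The 5 cells with the most *Mt2* UMIs held 46.0% of the WT sum and 51.1% of the ROBO sum. *Mt1* was 18.5 in WT and 17.9 in ROBO, giving a log2 ratio of -0.05 (-0.33 to 0.22). Paneth markers in this cluster summed to 440 UMIs per 10000 in WT and 269 in ROBO, with 8 of 10 lower in ROBO, and goblet markers to 732 and 892, with 5 of 10 lower; their part in the *Mt2* ratio was not tested. In the unnamed cells *Mt2* had 209 and 79 UMIs, or 16.1 (14.0 to 18.4) and 8.07 (6.39 to 10.1) per 10000, giving a log2 ratio of -0.996 (-1.39 to -0.62), the lowest of 347 genes, of which 14.4% were called lower. After thinning, a *Mt2* UMI was found in 45.5% of 55 WT and 44.4% of 45 ROBO cells of this cluster, nearly the same share. *Mt1* there was 45.1 in WT and 44.1 in ROBO. Markers of transiently amplifying cells in the unnamed cells summed to 21.6 UMIs per 10000 in WT and 10.7 in ROBO, with 17 of 18 lower in ROBO, and their part was not tested.

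Immune-like cells had 54 *Mt1* UMIs in 27 WT cells, of which 27 lay in 1 cell, and 7 in 19 ROBO cells. Their levels were 9.63 (7.24 to 12.6) and 2.03 (0.818 to 4.19) per 10000, giving a log2 ratio of -2.24 (-3.63 to -1.10). For *Mt2*, with 11 and 5 UMIs, it was -0.43 (-2.31 to 1.21). No ratio was computed without that WT cell. The immune-like level used above for free RNA was pooled over both genotypes. Enteroendocrine-like cells had 45 *Mt1* UMIs in 16 WT cells and 21 in 14 ROBO cells, giving a log2 ratio of -0.67 (-1.49 to 0.10), and 9 and 6 *Mt2* UMIs. With so few cells no difference was detectable in the enteroendocrine-like class.

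**Figure D4:**
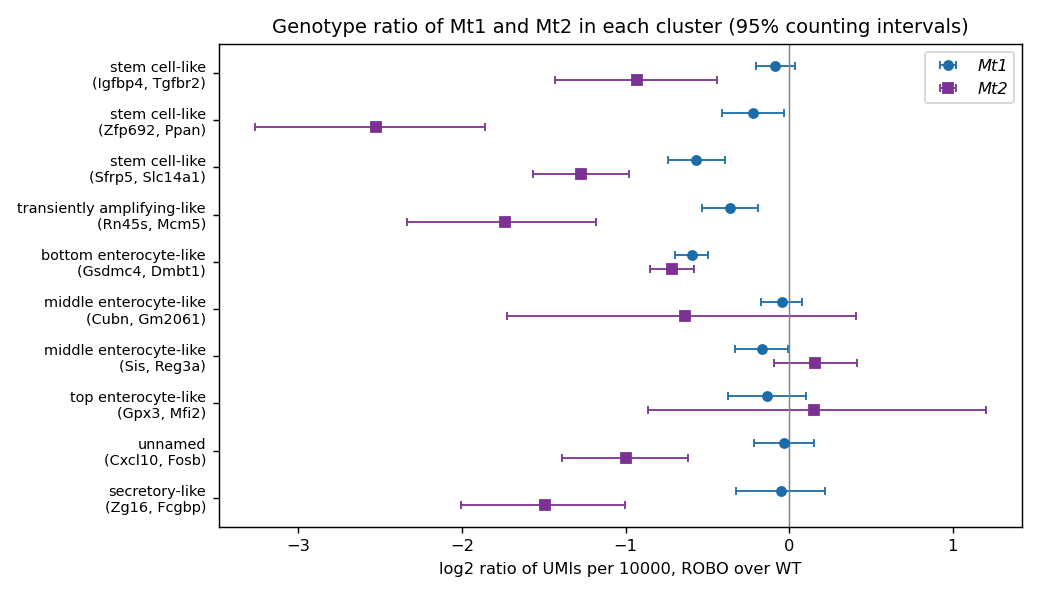
Log2 ratio of UMIs per 10000, ROBO over WT (x axis), of *Mt1* (blue circles) and *Mt2* (purple squares) in each cluster (y axis, named by class and its leading genes), with conditional exact 95% intervals for counting error only; enteroendocrine-like and immune-like clusters are left out. *Mt2* lies between -2.53 and -0.93 in the 3 stem cell-like clusters and at -0.72 in the bottom enterocyte-like cluster, while the *Sis* cluster is at 0.16. The value of -0.93 is from the *Igfbp4* cluster, where the pooled *Mt2* level was not above that which free RNA can give.

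The transport genes and the sensor gene were not called lower in ROBO. In epithelial-like cells *Slc39a4* was 1.52 per 10000 in WT and 1.65 in ROBO, giving a log2 ratio of 0.12 (-0.08 to 0.33), and in top enterocyte-like cells, where most of it was found per UMI, the log2 ratio was 0.05 (-0.37 to 0.47). *Slc30a1* was 0.552 in WT and 0.714 in ROBO, giving a log2 ratio of 0.37 (0.04 to 0.70), and was called higher. The call was lost with cells weighted equally, at 0.19, and with cells thinned, at 0.20 (-0.35 to 0.76). *Mtf1* had 68 and 59 UMIs, giving a log2 ratio of -0.07 (-0.60 to 0.45), an interval too wide to show a change of the size seen in *Mt1*.

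Among the 32 genes of a zinc handling list, all of which the matrices name, 22 had at least 100 UMIs in epithelial-like cells, with 1 called lower, 4 called higher and a median log2 ratio of 0.04. Over all 7355 genes 8.5% were called lower and 9.08% higher, and the median was 0.01. Leaving out the metallothioneins, 0 of 20 were called lower and 4 were called higher. The genes called higher were the importer genes *Slc39a8*, with 73 UMIs in WT and 91 in ROBO (0.45, -0.01 to 0.92), and *Slc39a1*, with 137 and 162 (0.38, 0.04 to 0.71), the exporter gene *Slc30a1*, and *Mtf2*, with 113 and 132 (0.36, -0.02 to 0.73). A place on this list, such as that of *Mtf2* or *Slc30a10*, does not show that a gene acts on zinc. The more abundant transporter genes were near equal over all epithelial-like cells: *Slc39a5*, which encodes a basolateral importer, had a log2 ratio of -0.13 (-0.29 to 0.03), *Slc39a14* 0.18 (0.02 to 0.35) and *Slc30a10* 0.08 (-0.08 to 0.24). By class, *Slc39a5* was -0.32 (-0.63 to -0.02) in stem cell-like cells and 0.27 (-0.07 to 0.60) in middle enterocyte-like cells. *Slc30a10* was 0.69 (0.07 to 1.33) in transiently amplifying-like cells and -0.15 (-0.43 to 0.13) in middle enterocyte-like cells. *Slc39a14* differed in sign among the classes, with 114 UMIs in WT and 55 in ROBO in bottom enterocyte-like cells, giving a log2 ratio of -0.74 (-1.23 to -0.26), and 32 and 51 in transiently amplifying-like cells, giving a log2 ratio of 0.99 (0.32 to 1.67).

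Among classes, the other transporter genes fell into a few patterns. Among the named classes *Slc39a14* and the exporter gene *Slc30a10* were highest in middle enterocyte-like cells, with 5.18 (4.70 to 5.68) and 5.06 (4.59 to 5.56) UMIs per 10000, and had 1.34 (1.15 to 1.56) and 1.32 (1.13 to 1.53) in bottom enterocyte-like cells. Unnamed cells came close, with *Slc39a14* at 4.47 in WT and 5.01 in ROBO and *Slc30a10* at 4.78 and 3.99. *Slc39a5* had 3.56 (3.17 to 3.99) in middle enterocyte-like cells, 3.55 (2.94 to 4.25) in transiently amplifying-like cells and 1.51 (1.11 to 2.00) in top enterocyte-like cells, a lower level where *Slc39a4* was highest. Its level in unnamed cells was 3.62 in WT and 3.47 in ROBO. *Slc39a7*, which encodes a zinc transporter of the endoplasmic reticulum, had 2.82 (2.20 to 3.56) in secretory-like cells, above the intervals of the other epithelial classes except enteroendocrine-like cells, which held 5 UMIs.

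*Crip1*, which encodes a zinc-binding cysteine-rich intestinal protein, went from 4.88 (4.56 to 5.22) UMIs per 10000 in stem cell-like cells to 30.8 (28.9 to 32.8) in top enterocyte-like cells. In epithelial-like cells its log2 ratio was -0.18 (-0.25 to -0.10) and was not called. In bottom enterocyte-like cells it had 655 UMIs in WT and 307 in ROBO, giving a log2 ratio of -0.78 (-0.98 to -0.58), and in transiently amplifying-like cells 220 and 103, giving a log2 ratio of -0.78 (-1.13 to -0.43), the classes in which *Mt1* and *Mt2* were both called lower. *Mt3* was listed with 0 UMIs and *Mt4* with 3 in WT and 2 in ROBO.

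**Figure D5:**
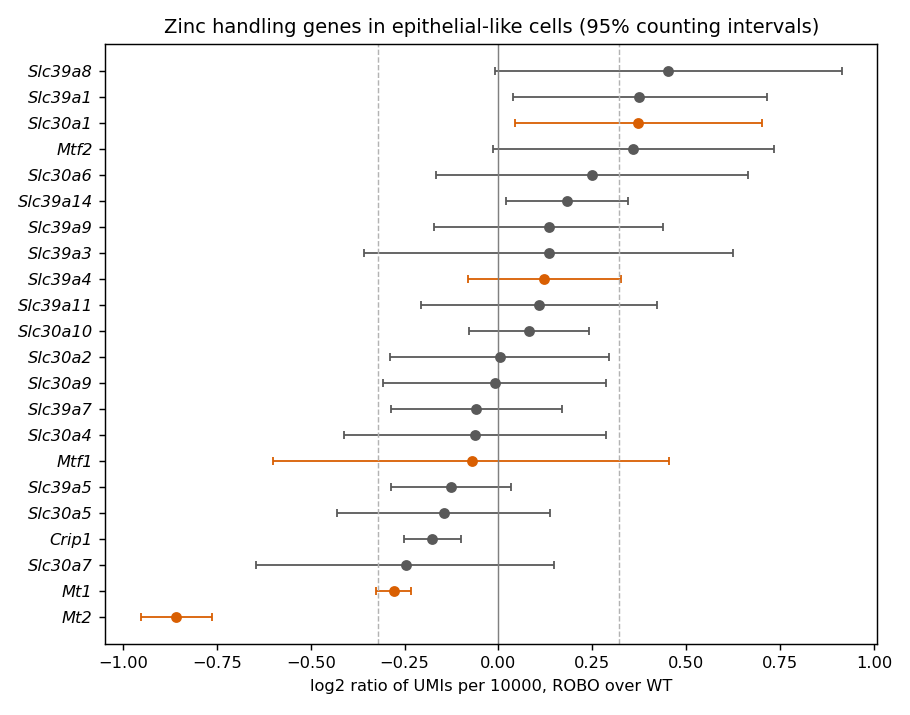
Log2 ratio of UMIs per 10000, ROBO over WT, in epithelial-like cells (x axis) for the 22 zinc handling genes with at least 100 UMIs (y axis), with conditional exact 95% intervals for counting error only; the 5 genes of this report are in orange and dashed lines mark the ratios of a call. *Mt2*, at -0.86, lies apart from the other 21 genes, which lie between -0.28 and 0.45.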

How the data were processed

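Crypt isolates of the small intestine were profiled with droplets and a 3′ kit with UMIs. The authors preprocessed reads in BaseSpace Sequence Hub and deposited the raw counts of each gene in each cell, not normalized, in 1 matrix for WT and 1 for ROBO; the labels name mm10 and GRCm38, and the aligner, the annotation and the rule for calling cells are not given in the sources used here. The authors' methods remove dead cells before capture.

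All deposited cells were log-normalized to 10000 UMIs, scores of 42 S and 54 G2M genes were removed by regression, and the 2000 variable genes, less the 6 zinc handling genes among them, were reduced to 20 principal components and clustered at a resolution of 0.8 (Seurat 5.3.0, R 4.3.3). A cluster was named from the list with the most markers among its 10 leading genes, given at least 1 there and 3 markers raised 1.5-fold in at least 10% of its cells; this rule was set after the clusters were seen. Scrublet (scanpy 1.11.5, expected rate 5%) called 2 WT and 4 ROBO cells, under 0.5% of cells, which stayed in except in an alternative.

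UMIs were summed per class and genotype and scaled to 10000. Intervals are exact Poisson (sums), Clopper-Pearson (shares) and conditional exact (ratios), at 95% (scipy 1.17.1); a count of 0 allows 3 counts. The ratio step was tested on simulated sums with counting error only. That check does not cover UMIs held by a few cells or the spread between mice. Ratios of all genes with at least 100 UMIs give the background of calls. Likeness of pattern is Pearson's r of log2(UMIs per 10000 + 0.1) over clusters. Genes named are the 5 members, listed zinc genes, the 5 genes most like each of 4 members (1 of them is not reported here), and leading genes of clusters; the *Crip1* and *Slc39a14* classes were chosen after their values were seen. The members, gene lists and alternatives were chosen with earlier results of these data known.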

Additional observations from a re-analysis of the deposited data

How the results depend on the processing

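The log2 ratios of *Mt1* and *Mt2* in epithelial-like, stem cell-like and transiently amplifying-like cells were below 0 under every alternative that gave a value; 51 of these values stayed inside the interval reported and 17 moved outside it. In epithelial-like cells *Mt2* was -1.18 with cells weighted equally and -0.73 with cells thinned, and *Mt1* lay between -0.29 and -0.27. In stem cell-like cells *Mt1* was -0.13 at a resolution of 0.5 and -0.0459 (-0.18 to 0.09) with only cells of at least 500 genes, and *Mt2* was -2.04 with the zinc list kept among the variable genes, -1.08 without regression of S and G2M scores, -2.08 at a resolution of 0.5, -1.94 with at least 500 genes and -1.85 with cells weighted equally. In transiently amplifying-like cells *Mt1* was -0.64 with the zinc list kept, -0.61 without regression and -0.65 with at least 500 genes, but fell short of a call at a resolution of 0.5 (-0.19) and with cells weighted equally (-0.24), and *Mt2* was -1.12, -1.14 and -1.12 under the first 3 of these settings, -1.14 at a resolution of 0.5 and -2.63 without the 5 cells of each genotype with the most *Mt2* UMIs, an alternative chosen after seeing the data, as was that of equal cluster shares. Alternatives that recluster the cells change which cells a class holds. Of the other ratios, 13 values moved and 111 did not; *Slc39a4* in epithelial-like cells was -0.17 with cells thinned, *Slc30a1* was not called with cells weighted equally (0.19) or thinned (0.20), *Mt2* in secretory-like cells between -2.38 and -0.62, the last with an interval that includes 0, and *Mt2* in middle enterocyte-like cells between -0.34 and 0.21.

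Leaving out the cluster led by *Rn45s* gave no value, since it was the only transiently amplifying-like cluster. No paired analysis was possible because the cell names carry no replicate number, and for the same reason no sample was left out. Depth limits *Slc30a1* and *Mtf1* most, with 317 and 127 UMIs in all.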

Other observations

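Other gene lists were counted in epithelial-like cells by the same rule of a 25% difference, under which 8.5% of genes were lower and 9.08% higher in ROBO. Of 11 glucocorticoid responsive genes with at least 100 UMIs, 4 were called lower and 0 higher, with a median log2 ratio of -0.23 against 0.01 over all genes. They were *Fkbp5*, which encodes a chaperone of the glucocorticoid receptor, with 125 UMIs in WT and 72 in ROBO and a log2 ratio of -0.66 (-1.10 to -0.23), the clock gene *Per1*, with 283 and 206 (-0.32, -0.59 to -0.06), the cell cycle inhibitor gene *Cdkn1a*, with 551 and 393 (-0.35, -0.54 to -0.16), and the stress gene *Ddit4*, with 374 and 267 (-0.35, -0.58 to -0.12). *Tsc22d3*, which is often used as a readout of glucocorticoid action, had a log2 ratio of -0.09 (-0.31 to 0.14), and *Sgk1* of 0.09 (-0.07 to 0.25).

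Of 10 copper handling genes, 0 were called lower and 1 higher, *Sco1*, with 64 UMIs in WT and 78 in ROBO (0.42, -0.08 to 0.92). The copper importer gene *Slc31a1* had a log2 ratio of 0.22 (0.05 to 0.39) and the chaperone genes *Atox1* of -0.13 (-0.28 to 0.03) and *Cox17* of -0.24 (-0.43 to -0.05). *Commd1* had a log2 ratio of -0.27 (-0.51 to -0.04). Of 5 genes linked to MTF1, *Slc30a1* was the only one called, and *Gclc* had a log2 ratio of 0.15 (-0.24 to 0.53). Of 9 oxidative stress genes, 0 were called lower and 1 higher, *Gclm*, with 335 and 391 UMIs (0.36, 0.14 to 0.57). *Txnrd1* had a log2 ratio of -0.28 (-0.47 to -0.10). These lists were chosen with earlier results of these data known, and with 1 pooled sample per genotype none of the differences has a replicate check.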
